A study of Bos taurus with 4 samples.

Results

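Serum amyloid A, S100, defensin and acute phase genes of innate host defence were compared between the RNA-seq libraries of bovine mammary epithelial cells titled HH and LL. The set holds 8 of the 31021 genes of the deposited table: SAA3, M-SAA3.2, S100A8, S100A9, S100A12, LAP, HP and LBP. The genes were selected on earlier values of this same HH against LL contrast, so their ratios describe these libraries, carry no test and support nothing further. The cells were primary epithelial cultures from the udders of Chinese Holstein cows, grown out of tissue and freed with enzymes. The series compares cows whose milk held 4.85% fat with cows at 3.41%, kept alike on maize and hay. The phenotype label is high for both RNA-seq libraries and low for both small RNA libraries, and the codes HH and LL are not spelled out, so every direction is given by code. No treatment, age or number of cows is given in the labels for either code.

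Innate defence of the udder rests on proteins that epithelial cells, leukocytes and the liver make when bacterial products are sensed. LBP carries lipopolysaccharide, the cell wall toxin of Gram-negative bacteria, to CD14 and the TLR4 receptor, and signalling through NF-kB and, by way of IL-6 type cytokines, STAT3 switches on acute phase genes. Serum amyloid A and haptoglobin are acute phase proteins of cattle, and the mammary form of serum amyloid A is secreted into milk in mastitis. S100A8, S100A9 and S100A12 are calcium-binding proteins abundant in neutrophils, and beta-defensins are small cationic peptides of epithelia that damage bacterial membranes.

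Each code was 1 library, with 17369144 counts for HH and 16318951 for LL. No difference has a replicate check, and each ratio compares libraries, not conditions. Levels are given as raw counts and as CPM, counts per 1000000, after TMM scaling. They are not divided by transcript length and are not compared between genes. The log2 ratio is HH over LL, with an exact (Clopper-Pearson) 95% interval for counting error only. A gene was called higher in a library where its whole interval lay past 2-fold, among genes with at least 100 summed counts. In these bulk libraries fewer cells of a type and less RNA per cell cannot be told apart.

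All 8 genes had more scaled counts in LL than in HH. Together they took 0.101% of all counts in HH and 0.277% in LL, with a log2 ratio of their sum of −1.50 (−1.53 to −1.48). Of the 8, 7 reached the count minimum, and all 7 were called higher in LL. By the same rule 128 of the 12804 tested genes (1.0%) were called higher in LL and 240 (1.87%) higher in HH. Since the genes were chosen on this contrast, nothing is read from that count. Only LAP and M-SAA3.2 had a whole interval past 4-fold, a rule met by 0.266% of tested genes towards LL and by 0.383% towards HH. The median log2 ratio was −1.83 over the 8 genes and −0.01 over all tested genes, whose quartiles were −0.23 and 0.24.

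**Figure D1:**
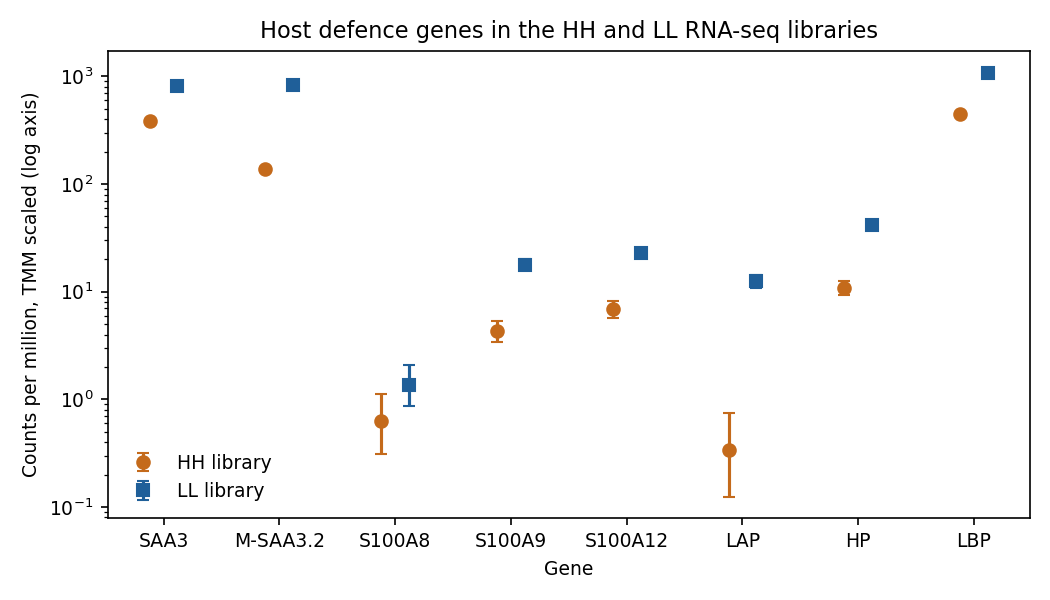
Scaled CPM of each host defence gene in the HH (circles) and LL (squares) library, on a log axis, with 95% exact Poisson intervals of the counts, many of them smaller than the symbols. LL lies above HH for every gene, from 808 against 387 for SAA3 to 12.5 against 0.340 for LAP, and the intervals overlap for S100A8 alone; heights are not comparable between genes, as counts grow with transcript length.

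SAA3 and M-SAA3.2 encode serum amyloid A proteins of the acute phase. SAA3 had 6839 counts in HH and 12972 in LL, or 387 against 808 CPM. Its log2 ratio was −1.06 (−1.10 to −1.02), which is 2.09-fold (2.03 to 2.15) higher in LL and close to the 2-fold limit. Scaled by total counts its interval was −1.06 to −0.97, which no longer passed the limit, and at a stricter confidence level for the interval the call was lost as well. M-SAA3.2, the mammary form, had 2423 counts in HH and 13337 in LL, or 137 against 831 CPM. Its log2 ratio of −2.60 (−2.66 to −2.54) is a 6.05-fold (5.80 to 6.33) difference.

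The balance of these serum amyloid genes therefore differed between the libraries. M-SAA3.2 held 26.2% (25.3 to 27.1%) of their joint counts in HH and 50.7% (50.1 to 51.3%) in LL. The RefSeq table of assembly ARS-UCD2.0 lists SAA3 as a synonym of M-SAA3.2. The sources used here do not say how reads shared by such similar genes were counted, so the split between them is uncertain. Their sum does not depend on that split if each shared read was counted once, which is not stated either. It was 9262 in HH against 26309 in LL, or −1.64 (−1.68 to −1.61) on the log2 scale. The other serum amyloid A symbols were nearly silent: SAA2, a liver acute phase form in other mammals, had 2 counts in HH and 4 in LL, and SAA4, a form made constitutively in the liver of other mammals, had 0 in both. SAAL1, which is named for its likeness to serum amyloid A, had 96 and 108, at −0.31 (−0.72 to 0.10).

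LBP and HP are plasma proteins of the acute phase that sense and scavenge. LBP, the lipopolysaccharide carrier, had 7899 counts in HH and 17417 in LL, or 447 against 1085 CPM. The log2 ratio was −1.28 (−1.32 to −1.24), a 2.43-fold difference (2.36 to 2.49). HP, the haptoglobin that binds free haemoglobin, had 192 counts in HH and 664 in LL, or 10.9 against 41.4 CPM. Its log2 ratio was −1.93 (−2.17 to −1.69), a difference of 3.80-fold (3.23 to 4.49). An LBP-like copy, LOC514978, had 12 counts in HH and 4 in LL, too few to be tested, and lay on the other side.

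The S100 genes of neutrophils had low counts. S100A9, which pairs with S100A8 to form calprotectin, had 76 counts in HH and 286 in LL, or 4.30 against 17.8 CPM, with a log2 ratio of −2.05 (−2.43 to −1.68). S100A12, a ligand of the receptor AGER, had 122 and 371, or 6.91 against 23.1 CPM, a log2 ratio of −1.74 (−2.05 to −1.44). S100A8 had 11 and 22, which is under the count minimum, and its interval of −2.33 to −0.03 runs from a 5.02-fold to a 1.02-fold difference.

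Within the S100A8, S100A9 and S100A12 counts the proportions were close in both libraries. S100A9 made up 36.4% (29.8 to 43.3%) in HH and 42.1% (38.4 to 45.9%) in LL, and S100A12 58.4% (51.4 to 65.1%) and 54.6% (50.8 to 58.4%), with intervals that overlap. Of the 10 other tested genes of the S100 list none was past 2-fold, 7 lay above 0, and their median log2 ratio was 0.27. They ranged from −0.87 (−0.97 to −0.78) for S100A2, an S100 gene of basal epithelium in human tissue, to 0.87 (0.55 to 1.19) for S100A1, a calcium sensor best known from muscle. S100A10, the partner of annexin A2, was at 0.55 and S100A14 at 0.73. The list also held S100PBP, which is a binding partner and not an S100 protein.

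In the RefSeq gene order of ARS-UCD2.0, S100A8, S100A12 and S100A9 are next to each other with no protein-coding gene between them. On the S100A9 side, PGLYRP4 and PGLYRP3, which encode peptidoglycan recognition proteins, had 2 and 0 counts in HH and 0 and 0 in LL. On the S100A8 side and not directly beside it, S100A7 had 0 and 1. The next gene out, LOC618256, had 64 and 31, at 0.91 (0.27 to 1.58), and was under the count minimum. SAA3 and M-SAA3.2 flank SAA2, SAA4 and the unnamed LOC104968478, which had 14 counts in HH and 0 in LL, too few to be tested. Next to SAA3 on the other side HPS5, a gene of lysosome-like organelles, was at −0.31. HP lies between TXNL4B (0.09) and DHODH (−0.33). Over the 8 protein-coding genes on either side of each of the 8 host defence genes, 31 other genes were tested, and none was past 2-fold, with log2 ratios from −0.85 to 0.81. They were unevenly spread, with 14 near HP, 9 near LBP, 6 near SAA3, 1 near LAP and 0 near S100A9. S100A4 (0.30) was the only one near S100A8 and S100A12. Over all tested genes 1.0% were called towards LL and 1.87% towards HH, so nothing is read from the absence of calls. No neighbour overlapped a host defence gene in this annotation.

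LAP, the lingual antimicrobial peptide, is a beta-defensin first found in bovine tongue. It had 6 counts in HH and 200 in LL, or 0.340 against 12.5 CPM. The log2 ratio of −5.20 (−6.66 to −4.05) is a 36.7-fold difference, and with 6 counts in HH its interval is wide, from 16.6- to 101-fold. The deposited table gives LAP the gene type miscRNA, while RefSeq gives it as protein-coding, so a fit on genes of the type mRNA alone leaves it out.

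LAP was the only beta-defensin with more than 22 counts in a library. The table holds 31 symbols named or described as beta-defensins, and 19 of them had no count in HH or LL. TAP, the tracheal antimicrobial peptide and the founding bovine beta-defensin, had 2 counts in HH and 1 in LL, and DEFB4A had 6 and 6. DEFB1, the enteric beta-defensin, had 0 and 5. Some counts lay on the other side: LOC782487, described as beta-defensin 1-like and picked out after its values were seen, had 22 counts in HH and 0 in LL, and LOC789175, described as beta-defensin 300, had 9 and 0. Without LAP the defensin symbols summed to 42 counts in HH and 20 in LL, or 0.93 as log2 ratio (0.13 to 1.78). LOC782487 gave 22 of those 42 counts in HH, so the lean of this sum to HH rests on that symbol. With LAP the sums were 48 and 220, a log2 ratio of −2.33 (−2.82 to −1.88). Beta-defensin genes are alike in sequence, and the treatment of shared reads is likewise unstated in the sources used here.

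**Figure D2:**
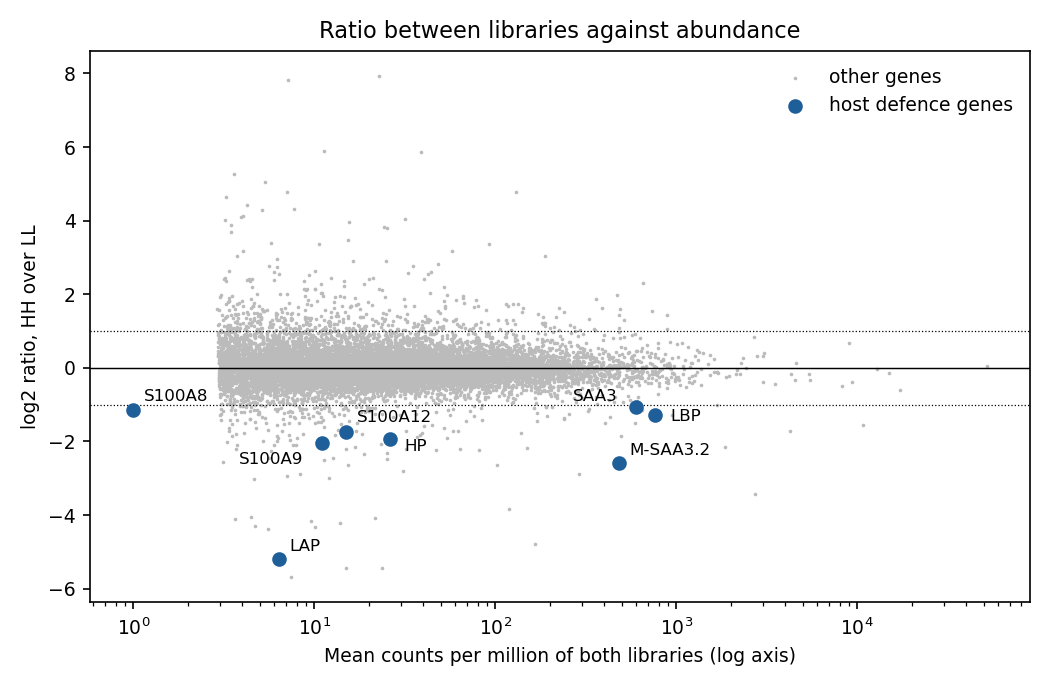
The log2 ratio of HH over LL against the mean scaled CPM of both libraries (log axis) for the 12804 tested genes (grey) and the 8 host defence genes (blue), with dotted lines at 2-fold. SAA3 (−1.06), M-SAA3.2 (−2.60) and LBP (−1.28) lie among the more counted genes, S100A9, S100A12 and LAP among those with fewer counts, HP between them, and S100A8 below the count minimum.

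Ranked by log2 ratio from the LL side among 12804 tested genes, LAP stood at rank 4, M-SAA3.2 at 24, S100A9 at 47, HP at 52, S100A12 at 70, LBP at 134 and SAA3 at 207. With a pair of libraries the only measure of likeness between genes is the ratio itself. Among 5848 other genes with at least 1000 summed counts, the nearest to the median of the host defence genes was LOC100294952, described as T-cell receptor beta chain-like, at −1.84. ABCA1, the cholesterol exporter, followed at −1.82, then the unnamed LOC511161 (−1.87) and LOC104975830 (−1.77) and the small GTPase gene RRAD (−1.76).

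The other acute phase genes were split. Of 27 listed genes 13 were tested, with 1 called higher in each library and a median log2 ratio of −0.12. For this and the other lists, the shares to set beside such counts are those over all tested genes. These were 1.0% towards LL and 1.87% towards HH. At such shares a short list may well hold no called gene, so a list without calls is not read as a result. CP, the copper-carrying ceruloplasmin, had 497 counts in HH and 2832 in LL, at −2.65 (−2.79 to −2.51). SERPINA3-1, an antichymotrypsin-like inhibitor, went the other way with 139 against 43, at 1.56 (1.05 to 2.08). PTX3, a long pentraxin that marks microbes, was at 1.17 (0.997 to 1.34) and passed 2-fold under total-count and DESeq2 scaling. ITIH2 was at 0.94. LCN2, the iron-withholding lipocalin of neutrophils and epithelia, was at −0.62, and C3, the central complement protein, at −0.32.

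Other antimicrobial and secretory defence genes were likewise mixed. Of 36 listed genes 14 were tested, 2 were called higher in LL and none in HH, and the median was −0.12. Over all tested genes 1.0% were called higher in LL and 1.87% in HH. LTF, the iron-binding lactoferrin, had 96586 counts in HH and 257998 in LL, at −1.55 (−1.57 to −1.54). PIGR, the receptor that carries antibodies into milk, had 4291 and 9915, at −1.35 (−1.40 to −1.29). LPO, lactoperoxidase, lay just short of 2-fold at −0.98 (−1.03 to −0.92), and GP2, a receptor for bacterial fimbriae, was at 0.81. The cathelicidins, peptides of neutrophil granules, had no counts apart from CATHL3 with 1 in each library.

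The genes that sense bacterial products lay on both sides of 0. None of 17 tested pattern recognition genes was past 2-fold, with a median of −0.18 and a range from −0.45 to 0.60. Over all tested genes 1.0% were called towards LL and 1.87% towards HH, so the absence of calls is not read as a result. CD14, the surface partner of LBP, had 2126 counts in HH and 2186 in LL, at −0.18. TLR4, the lipopolysaccharide receptor, was at 0.47 (0.36 to 0.57) and its co-receptor LY96 at 0.23. TLR3 was at 0.60, TICAM1, its adaptor, at 0.45 and TLR5, the flagellin receptor, at −0.45. The receptors that bind the host defence proteins included none past 2-fold among 9 tested, with a median of 0.23. SCARB1, which binds serum amyloid A and lipoproteins, was at 0.76, TLR2, another serum amyloid A receptor, at −0.42, BSG, which binds S100A9, at 0.35, and CD163, the haemoglobin-haptoglobin scavenger, at 0.07. AGER, the receptor of S100A12, had 116 and 93 counts, at 0.18.

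For the regulators that induce acute phase genes the list medians were near 0, while some single genes lay further out. CEBPB, a listed C/EBP gene, had no match among the gene symbols. None of 19 tested NF-kB genes was past 2-fold, and their median was −0.04. NFKBIA, the inhibitor that NF-kB itself induces, was at 0.03, TNFAIP3, another feedback inhibitor, at 0.54, NFKBIB at −0.51, TRAF1 at 0.53 and BIRC3 at −0.43. NFKBIZ, a cofactor of NF-kB at acute phase and defensin genes, was at −0.17. Of 15 tested genes of the IL-6, STAT3 and C/EBP list, 1 was past 2-fold and the median was −0.17. That gene was LIF, an IL-6 type cytokine, with 33 counts in HH and 102 in LL, at −1.77 (−2.38 to −1.19). IL6R, the receptor of IL-6, was at −0.81, SOCS3, the feedback inhibitor of STAT3, at −0.54, STAT3 at −0.03, JAK2 at 0.40 and CEBPD, an acute phase transcription factor, at 0.30.

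Several of the inducing cytokines themselves were hardly counted. Named for their role and not by the size of their ratio, IL6 had 4 counts in HH and 5 in LL, IL1B 2 and 4, TNF 17 and 34, and IL17A 0 in both, which at 3 counts allows up to 0.170 CPM in HH and 0.187 in LL. Other cytokines of the lists were counted more. IL33 had 560 counts in HH and 441 in LL, at 0.21, IL23A 247 and 254, at −0.18, and IL18 68 and 28. None of 12 tested genes of the IL-1, TNF and IL-17 list was past 2-fold, with a median of −0.10. IL17RE, a receptor chain of epithelia, was at 0.77, IL1RAP at −0.51, IL1RN, the IL-1 antagonist, at −0.45 and IL10RB at −0.25. Of the chemokines that draw neutrophils only CXCL3 and GRO1 were tested. CXCL3 had 6897 counts in HH and 11551 in LL, at −0.88 (−0.92 to −0.84), and GRO1 60 and 78, at −0.52. Others of that list were under the count minimum and lay on both sides. CXCL8 had 39 counts in HH and 24 in LL and CSF3 43 and 17, while CXCL2 had 6 and 22 and CXCL5 4 and 10.

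**Figure D3:**
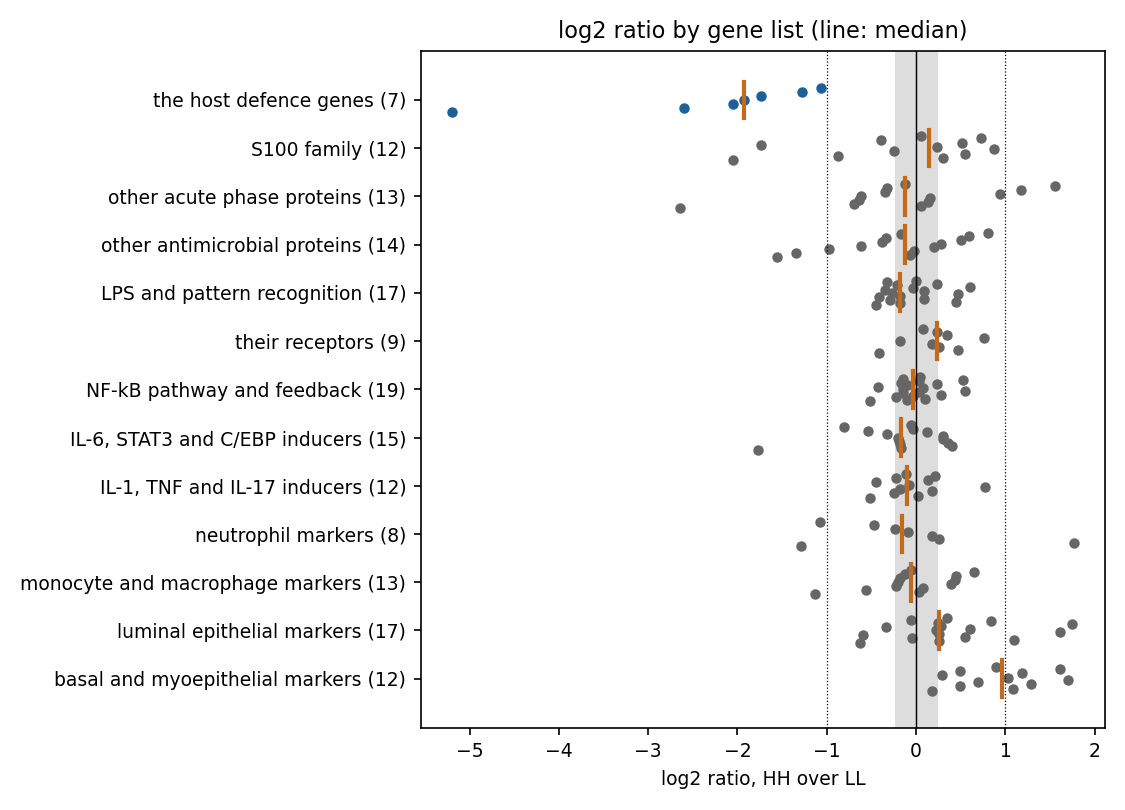
The log2 ratio of HH over LL for each gene with at least 100 summed counts in the named lists (number tested in brackets); orange lines are list medians, dotted lines 2-fold, and the grey band runs between the quartiles of all tested genes. The 7 tested host defence genes lie from −5.20 to −1.06, while the NF-kB genes lie from −0.51 to 0.54; the S100 list includes S100A9 and S100A12.

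Markers of the cells that make these proteins were measured beside them. Of 22 neutrophil markers 8 were tested, with 1 higher in HH and none in LL. Their median was −0.16, and the whole list summed to 77.2 CPM in HH and 85.9 in LL. The most counted were CYBB (−0.23) and ITGB2 (0.26), which macrophages also express, and NCF4 (−1.07). The 1 past 2-fold was ADGRG3, a granulocyte receptor, at 1.76 (1.21 to 2.35). The more specific markers had few counts: CSF3R, the G-CSF receptor, had 31 in HH and 69 in LL, at −1.29, CXCR2 14 and 32, MPO 4 and 4, ELANE 0 and 8, and MMP8 0 in both. CSF3R, CXCR2 and ELANE thus had more counts in LL, as S100A9 and S100A12 did, and ADGRG3 and CD177 (39 and 9) fewer. Whether neutrophils contributed to the S100 ratios was not tested.

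Macrophage markers summed to close levels, while single genes lay on both sides. Of 13 tested monocyte and macrophage markers none had its whole interval past 2-fold. The median was −0.05, and the list summed to 220.5 CPM in HH and 225.3 in LL. Ratios ran from −1.14 (−1.74 to −0.56) for FCGR1A, with 38 and 76 counts, to 0.65 (0.29 to 1.02) for MSR1. AIF1 was at −0.56 and C1QB at 0.43. The most counted, CSF1R, C1QC and CD68, were at −0.13, −0.05 and −0.23. The hepatocyte list summed to 351 CPM in HH and 512 in LL, almost all from SERPINA1 (−0.64), FGG (−0.70) and TTR (0.78), none past 2-fold. Of its plasma protein genes, ALB, the albumin gene, had 2 counts in each library, AHSG 1 and 2, and APOB and APOA2 0 in both. Others differed at counts too low to be tested: APOA1, the main protein of high-density lipoprotein, had 15 in HH and 72 in LL, at −2.40 (−3.31 to −1.58), and F2, the prothrombin gene, had 21 and 1, at 4.25 (1.62 to 9.62). TF, transferrin, had 14 and 0.

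**Figure D4:**
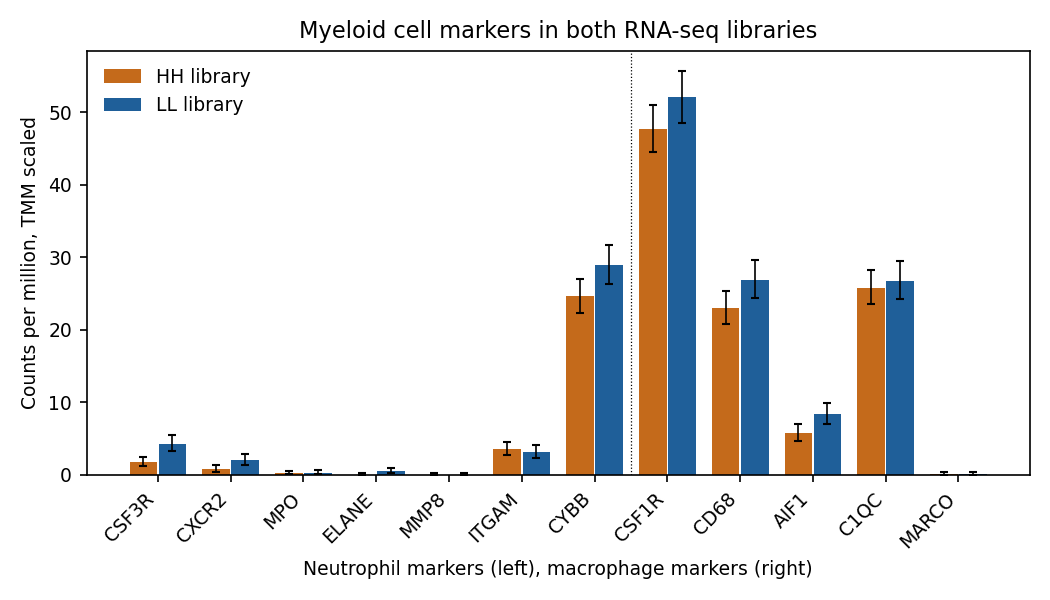
Scaled CPM of 12 neutrophil and macrophage markers in the HH (orange) and LL (blue) library, with 95% exact Poisson intervals of the counts. The 12 were picked from the lists. Among neutrophil markers not shown, ADGRG3, CD177 and FCGR3A had more counts in HH, and NCF4 more in LL. CSF3R and CXCR2 are low in both libraries and higher in LL, and MMP8 is at 0. CSF1R, CD68 and C1QC have log2 ratios between −0.23 and −0.05, and AIF1 has one of −0.56. Heights are not comparable between genes.

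Lymphoid and epithelial markers differed between the libraries. B and plasma cell markers summed to 828 CPM in HH and 5427 in LL, mostly IGCGAMMA, an immunoglobulin G constant region (−3.44). Of 6 tested 3 were higher in LL, also MZB1 at −2.35 and POU2AF1 at −1.30, the last no longer past 2-fold under total-count or DESeq2 scaling; XBP1 was at −0.41 and JCHAIN at 0.15. T and NK cell markers summed to 86.5 CPM in HH and 49.2 in LL, with IL7R (1.56) and CD5 (1.82) the 2 of 8 past 2-fold, and CD3E at 1.02. All 17 luminal epithelial markers were tested and their median was 0.26; 3 were higher in HH, namely KRT18, CLDN3 and CLDN4, and the list includes the milk protein gene CSN2 (−0.59). All 12 basal and myoepithelial markers lay above 0, with a median of 0.96, and 4 were past 2-fold in HH, among them KRT5 (1.29) and KRT17 (1.61). CNN1 (1.08) and TAGLN (1.03) joined them under total-count scaling. None of 10 fibroblast markers was past 2-fold in HH (median 0.72), although 1 was under total-count scaling, nor any of 8 endothelial ones (median −0.22). Leukocyte, fibroblast and endothelial markers were thus counted alongside epithelial ones in libraries labelled as epithelial cells. The part of these markers in the host defence ratios was not tested.

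The small RNA libraries titled with the same codes gave a separate readout of miRNAs tied to blood cells and inflammation. To show the seeds that set them apart, the most frequent tag of at least 21 nt of 3 precursors is printed 5′ to 3′ as deposited, with the seed (bases 2 to 8), which pairs with targets, in capitals.
bta-mir-155: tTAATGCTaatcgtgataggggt
bta-mir-21: tAGCTTATcagactgatgttg
bta-mir-146b: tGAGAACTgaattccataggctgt

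The miRNAs of blood cells were almost absent. Precursor bta-mir-223, of neutrophils and other myeloid cells, had 3 reads in HH and 0 in LL, bta-mir-142, of all blood cells, 5 and 3, and bta-mir-150, of lymphocytes, 0 and 1. The red cell miRNA bta-mir-451 had 21 and 4. By read totals of 7087726 miRNA reads in HH and 9059038 in LL, the first 3 of these are at or close to the floor of 3 reads.

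The miRNAs induced in inflammation did not share a direction over reads of all lengths, and tag length moved bta-mir-155 and bta-mir-21. Precursor bta-mir-155, which rises in activated immune cells, had 416 reads in HH and 1494 in LL, at −1.54 (−1.71 to −1.39). Most of its LL reads were shortened: 71.8% were under 21 nt, against 19.7% in HH, where all miRNA reads together had 19.0% and 6.85%. Its most frequent tag was one of 18 nt with 33 reads in HH and 782 in LL, while the printed one had 82 and 125. Over tags of at least 21 nt the ratio was −0.04 (−0.25 to 0.17) with the same scaling factors and −0.55 (−0.77 to −0.34) with factors estimated on those tags, no longer past 2-fold either way. Precursor bta-mir-146b, which targets TRAF6 and IRAK1 below TLR4, had 147 reads in HH and 50 in LL, at 1.86 (1.38 to 2.35). It had no reads under 21 nt, and with the factors estimated on the longer tags alone, which shift every precursor by −0.52, it was at 1.34 (0.87 to 1.83) and no longer past 2-fold. It shares its first bases with bta-mir-146a, an NF-kB induced miRNA with 1 read in each library. Precursor bta-mir-21, induced by STAT3, had 59300 and 37918 reads, at 0.94 (0.93 to 0.96), which is short of 2-fold. Its most frequent tag, of 20 nt, had 16086 and 24439 reads, and the printed one 13663 and 6411. Over tags of at least 21 nt its ratio was 2.38 with the same factors and 1.86 with those estimated on these tags, past 2-fold in both. By the 2-fold rule 11.2% of 143 tested precursors were called higher in LL and 16.8% higher in HH. The median precursor was at 0.24, and DESeq2 or upper-quartile scaling shifted every precursor by −0.18 or −0.30. The others of the list were bta-mir-9-2 (0.07, below 0 under DESeq2 or upper-quartile scaling and with the factors of the longer tags), bta-mir-125b-1 (−0.18, above 0 over the longer tags with the same factors), bta-mir-125b-2 (0.37, below 0 with the factors of the longer tags), the liver miRNA bta-mir-122 (0.77) and, with 33 and 9 reads, bta-mir-132 (2.17).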

How the data were processed

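The authors deposited 1 table of raw read counts per gene symbol, in columns HH and LL per the file headers, and for each small RNA library a list of sequence tags with read counts and precursor names. Per the labels, total RNA over 18 nt went into Ion Total RNA-Seq libraries; the sources used here name no aligner, counter, build or annotation. Ratios used TMM factors (edgeR 4.0.16, R 4.3.3) and exact binomial 95% intervals (scipy 1.17.1), which cover counting error only: reads are not independent molecules where no molecular identifier is used. Calls needed 100 summed counts and a whole interval past 2-fold; a count of 0 was read against 3 counts. No p-value was computed with 1 library a code.

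The members and the 19 lists beside them were chosen with earlier results of these data known. Named genes were all members, list genes past 2-fold and, up to 4 a list, the next by size, the 3 most counted of each marker list and the nearest genes by ratio. Outside this rule, and with values seen, CD14, LY96, AGER, CD163, NFKBIA, NFKBIZ, STAT3, CEBPD, IL33, IL23A, LCN2, C3, neighbouring genes and low-count genes were given for their role. Of the list symbols, 7 were matched through RefSeq synonyms and 14 had no match. Alternatives were total-count, DESeq2 1.42.0 and upper-quartile scaling, other count minimums and call rules, mRNA genes only, copies summed and, chosen after seeing the data, tags of at least 21 nt with the same TMM factors or with factors estimated on them. The steps were tested on simulated data.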

Additional observations from a re-analysis of the deposited data

How the results depend on the processing

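Scaling moved every RNA-seq log2 ratio by between −0.02 and 0.05. All 8 host defence genes kept the direction of their point ratio under every scaling, and 1 call was lost: SAA3 at −1.01 by total counts. The interval of S100A8 ran from −2.28 to 0.015 by total counts and so no longer lay on a single side. In place of 7 called, 6 were at a stricter confidence level, which lost SAA3, and 6 with mRNA genes only, which leave out LAP. Past 4-fold 2 of the 8 were called. Over all genes 128 were higher in LL, or 199 and 218 with minimums of 20 and 1 counts, 229 by the point ratio and 34 past 4-fold, and 240 were higher in HH, or 452 and 49 by the last 2 rules. The sum of S100A8, S100A9 and S100A12 was at −1.84, past 2-fold, but S100A8 is a small share of it and alone was too little counted to be tested. By total counts 1 serum amyloid gene in place of 2 was higher in LL. The same scaling added 1 fibroblast marker and the basal markers CNN1 and TAGLN to the calls in HH. By total counts or DESeq2 2 acute phase genes in place of 1 were higher in HH. With minimums of 20 or 1 counts, 1 antimicrobial gene was higher in HH, 1 hepatocyte marker was higher in LL and 1 or 2 in HH, and the T and NK median was 0.76 or 0.89 in place of 1.12. With a minimum of 1 the neutrophil median was −0.40. Among small RNAs bta-mir-9-2 turned to −0.11 (DESeq2), −0.23 (upper quartile) and −0.22 (tags of at least 21 nt with factors estimated on them), and bta-mir-125b-2 to −0.074 with the latter. The same setting moved bta-mir-155 to −0.55, bta-mir-21 to 1.86 and bta-mir-146b to 1.34, which ended its call; bta-mir-146b has no shorter reads, so its move is that of the factors. With the main factors kept, the longer tags put bta-mir-155 at −0.038, bta-mir-21 at 2.38 and bta-mir-125b-1 at 0.23, the last turned from −0.18. For the other moves the cause was not tested. No paired analysis was possible because each code is 1 library, and for the same reason no replicate could be left out.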
